A study of Mus musculus with 16 samples.

Results

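S100 proteins, annexins and galectin-1 were followed as a group of 10 genes in CD8 T cells, the cytotoxic lymphocytes, from spleens of leukemic mice. The group holds 5 S100 genes (S100a4, S100a6, S100a10, S100a11 and S100a13), 4 annexins (Anxa1, Anxa2, Anxa5 and Anxa6) and Lgals1, out of 22180 genes measured. The group was selected on measured values: results of these same arrays were known when it was put together, and the rises of S100a6, Anxa2 and Lgals1 were among them. The differences below are therefore a description and no independent support for the choice of genes. Each gene was to be represented by the probe set with the highest mean over the 16 arrays, but all 10 had a single probe set of their own, so this decided nothing.

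The mice were female, and their strain reads C56BL/6 in the sample labels and C57BL/6 in the series design. All carried transplanted murine CLL cells (chronic lymphocytic leukemia, a cancer of B cells) that came from Eµ-TCL1 mice, in which a B-cell enhancer and promoter drive the TCL1 oncogene, and were studied 6 weeks after transplantation. The labels give no age, and CD8 T cells of mice without leukemia were not analysed here. From Lin- TCRb+ CD8+ spleen cells 4 subsets were sorted, with 4 arrays each. Naive cells were CD127hi CD44low and memory cells CD127hi CD44hi. Both effector subsets were CD127low CD44int-hi and were divided by surface PD-1, an inhibitory receptor, into PD-1int and PD-1hi. CD127 is a chain of the interleukin 7 receptor, and CD44 an adhesion receptor of cells that have met antigen. Whether the arrays of a subset stem from separate animals is not stated in the labels, so p-values cover the spread among these arrays alone, which may be technical.

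S100 proteins are small calcium-binding proteins that mostly act as dimers: on binding calcium they expose a surface that grips other proteins, such as myosin, cytoskeletal proteins and annexins. Annexins bind acidic phospholipids in membranes when calcium rises, and take part in membrane repair, vesicle traffic and the anchoring of the cell cortex. Galectin-1 is a secreted lectin that binds galactose-containing glycans on T-cell surface proteins and can restrain or kill activated T cells.

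Values are log2 expression, given in the order of replicates 1 to 4, so a difference of 1 is a 2-fold change. A gene is said to rise or fall only where its limma p, Benjamini-Hochberg adjusted over all 22180 genes of that comparison, was under 0.05; errors of differences are standard errors of that fit. The arrays were alike in scale, with medians between 6.39 and 6.49. The files carry no detection calls, so a low value cannot be told from background. The sort genes followed the gates: in PD-1hi against naive, Il7r, which encodes CD127, fell by 8.06 ± 0.20 and Pdcd1, which encodes PD-1, rose by 4.61 ± 0.15, while Cd44 rose by 2.92 ± 0.10 in memory. The identity genes Cd3e and Cd8b1 ranged from 12.43 to 12.96 and from 12.46 to 12.95 over all arrays. Against naive, Cd3e was higher and Cd8b1 lower in both effector subsets. The call of Cd3e in PD-1int was lost in a fit of only the arrays compared (limma adjusted p = 0.0553). Of 8 identity genes 1 rose and 0 fell in memory, 3 rose and 1 fell in PD-1int, and 3 rose and 2 fell in PD-1hi. Of all genes 11.7%, 22.7% and 27.1% changed there.

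The 10 genes fell into 2 kinds. S100a4, S100a6, S100a10, S100a13, Anxa2, Anxa6 and Lgals1 were higher in memory, PD-1int and PD-1hi than in naive cells, by 1.21-fold to 93.0-fold. In the fit without a replicate block, S100a11, Anxa1 and Anxa5 passed the test in none of the 6 comparisons. In memory against naive 7 of 10 rose and 0 fell; of all genes 11.7% changed, 6.70% rising and 5.02% falling. In PD-1int against naive 7 rose and 0 fell, where 22.7% of all genes changed (11.9% up, 10.8% down). In PD-1hi against naive 7 rose and 0 fell, where 27.1% changed (13.4% up, 13.7% down). These comparisons share the naive arrays, so they are not separate evidence.

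From memory to PD-1int these genes rose again, and from PD-1int to PD-1hi none of the 10 passed. In PD-1int against memory 7 of 10 rose and 0 fell, where 16.2% of all genes changed (8.49% up, 7.66% down). In PD-1hi against memory 6 rose and 0 fell, with 21.9% changed (10.8% up, 11.1% down); Anxa6 was the gene that no longer passed. In PD-1hi against PD-1int limma called 0 of 10, where 3.31% of all genes changed (1.37% up, 1.94% down). With 10 genes a count of 0 lies near that share, so nothing particular to these genes is read from it. There 2 of the 10, S100a4 and Anxa6, had an unadjusted p under 0.05, and no alternative fit called any. The median log2 difference of the 10 genes against naive was 0.66 (memory), 1.05 (PD-1int) and 0.97 (PD-1hi), beside -0.02, -0.03 and -0.01 over all genes. In PD-1hi against PD-1int it was 0.09, beside 0.01. Sorted pools of cells were measured, in which fewer cells with a transcript and less of it per cell cannot be told apart.

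**Figure D1:**
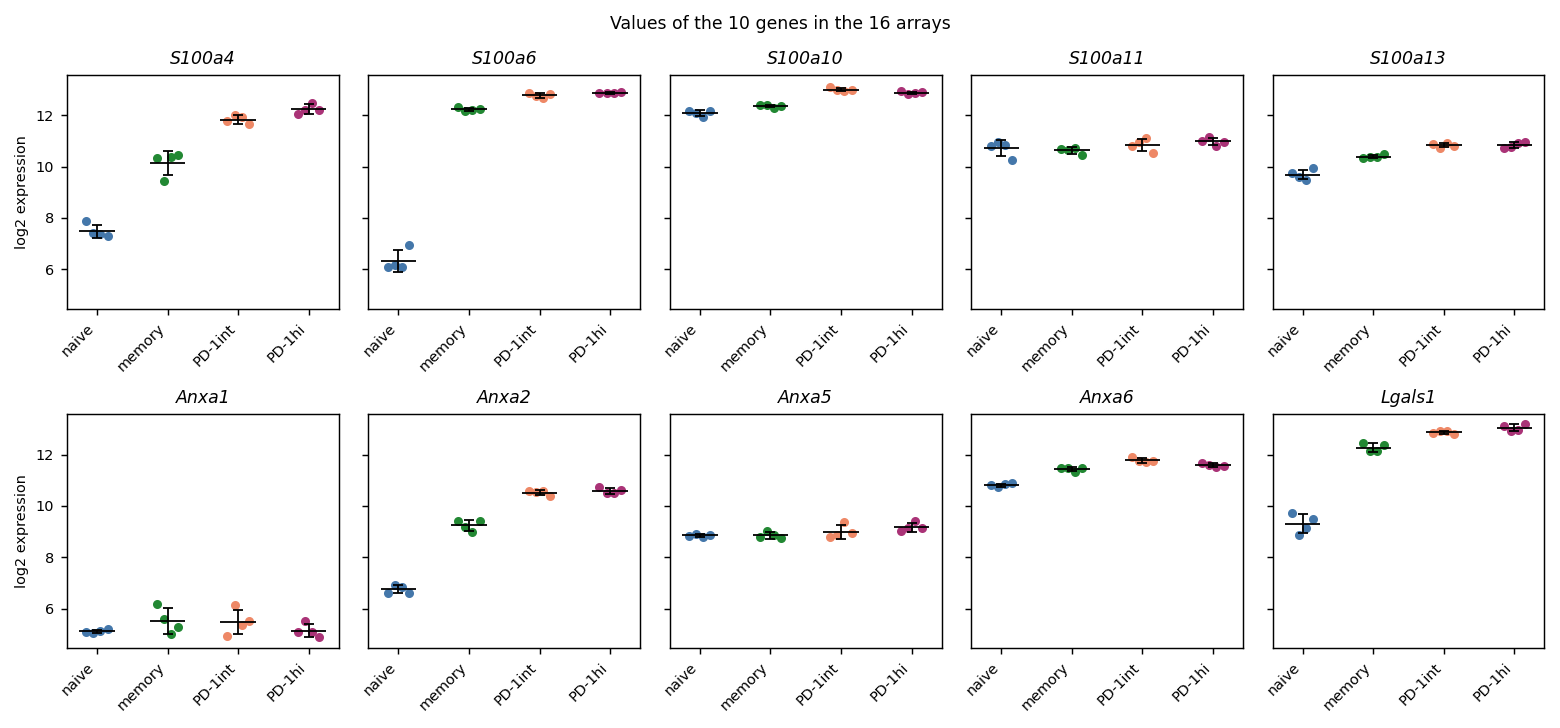
Log2 expression of the 10 genes (1 panel each) in the 4 sorted subsets; each point is 1 array, and bars show the mean ± SD of 4 arrays. S100a6 goes from a mean of 6.33 in naive to 12.87 in PD-1hi cells and Lgals1 from 9.31 to 13.05, whereas Anxa1 stays between 4.90 and 6.17.

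Among the S100 genes S100a6 changed most. It encodes calcyclin, a protein known from proliferating cells that binds the ubiquitin-ligase component CACYBP. S100a6 read 6.10, 6.16, 6.10 and 6.96 in the naive arrays, 12.31, 12.16, 12.21 and 12.23 in the memory arrays, 12.87, 12.73, 12.67 and 12.81 in the PD-1int arrays, and 12.85, 12.85, 12.85 and 12.92 in the PD-1hi arrays. The naive arrays lay far below the others, and PD-1int and PD-1hi overlapped. S100a6 rose by 5.90 ± 0.14 in memory against naive, 59.6-fold (limma adjusted p = 5.24e-15). Since 3 of the naive arrays lay below the array medians and were not told from background, the folds of S100a6 against naive are read as lower bounds. The step from memory to PD-1int was 0.54 ± 0.14 (adjusted p = 0.0114), and PD-1hi differed from PD-1int by 0.10 ± 0.14 (95% interval -0.19 to 0.40, adjusted p = 0.837).

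S100a4 rose more evenly over the steps. It encodes a protein that binds non-muscle myosin and is known for its part in cell motility. S100a4 read 7.86, 7.40, 7.36 and 7.31 in the naive arrays, 10.33, 9.43, 10.36 and 10.44 in the memory arrays, 11.77, 11.99, 11.92 and 11.64 in the PD-1int arrays, and 12.06, 12.21, 12.48 and 12.22 in the PD-1hi arrays. No subset overlapped another, and memory replicate 2 lay below the other memory arrays. S100a4 rose by 2.66 ± 0.18 in memory against naive (6.30-fold, limma adjusted p = 8.56e-09) and by a further 1.69 ± 0.18 in PD-1int against memory (3.22-fold, adjusted p = 2.86e-06); the latter was 1.45 ± 0.13 without memory replicate 2 (adjusted p = 7.93e-07). PD-1hi lay 0.41 ± 0.18 above PD-1int (95% interval 0.03 to 0.80) and did not pass (adjusted p = 0.302). On the log2 scale, of the difference between PD-1hi and naive, 55.8% was present in memory and 91.3% in PD-1int.

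S100a10 encodes the calcium-independent S100 protein that joins annexin A2 in a complex at the plasma membrane. S100a10 read 12.17, 12.10, 11.92 and 12.15 in the naive arrays, 12.41, 12.39, 12.28 and 12.36 in the memory arrays, 13.08, 12.99, 12.94 and 12.97 in the PD-1int arrays, and 12.94, 12.84, 12.86 and 12.89 in the PD-1hi arrays. Effector arrays lay above every memory and naive array, and PD-1int overlapped PD-1hi. S100a10 rose by 0.91 ± 0.07 in PD-1int against naive (1.88-fold, limma adjusted p = 1.94e-08) and by 0.63 ± 0.07 against memory (adjusted p = 4.86e-06). Its rise in memory against naive was 0.28 ± 0.07 (adjusted p = 0.0139). That call was lost without naive replicate 3 (adjusted p = 0.0572), in a fit of only the naive and memory arrays (0.0562) and after quantile normalization (0.0932).

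S100a13, which encodes a protein known for helping to export FGF1 from cells, ranged from 9.49 to 9.93 in the naive arrays, 10.34 to 10.47 in the memory arrays, 10.74 to 10.90 in the PD-1int arrays and 10.71 to 10.94 in the PD-1hi arrays. Its subsets did not overlap except for PD-1int and PD-1hi. S100a13 rose by 0.70 ± 0.09 in memory (limma adjusted p = 2.89e-05) and by 1.14 ± 0.09 in PD-1int (adjusted p = 2.12e-08) against naive, and PD-1hi differed from PD-1int by 0.00 ± 0.09 (95% interval -0.19 to 0.19). S100a11, which encodes a partner of annexin A1, ranged from 10.26 to 10.97 in the naive arrays, 10.44 to 10.73 in the memory arrays, 10.53 to 11.10 in the PD-1int arrays and 10.80 to 11.17 in the PD-1hi arrays. Against naive it differed by -0.10 ± 0.14 (memory), 0.12 ± 0.14 (PD-1int) and 0.26 ± 0.14 (PD-1hi), with overlapping arrays and no call (adjusted p = 0.792, 0.635 and 0.219). PD-1hi and memory arrays of S100a11 did not overlap, but this difference did not pass either (0.35 ± 0.14, adjusted p = 0.0918). It passed with the replicate number as a block (adjusted p = 0.0327) and in a fit of only the memory and PD-1hi arrays (0.0235).

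A probe set named for the pseudogene S100a11-ps, on chromosome 12 (start 73961087, end 73961577, GRCm38.p6), behaved otherwise; it was singled out after its values were seen. S100a11-ps read 8.14, 8.44, 8.20 and 8.34 in the naive arrays, 8.48, 8.72, 8.60 and 8.28 in the memory arrays, 9.35, 9.36, 9.44 and 9.22 in the PD-1int arrays, and 9.48, 9.55, 9.56 and 9.47 in the PD-1hi arrays. All effector arrays lay above all naive and memory arrays. S100a11-ps rose by 1.06 ± 0.09 in PD-1int (limma adjusted p = 8.13e-08) and by 1.24 ± 0.09 in PD-1hi (adjusted p = 7.36e-09) against naive. A pseudogene resembles its parent gene, so signal may be shared between these probe sets, and the values of S100a11 and S100a11-ps are uncertain to that extent; which transcript each probe set reads was not tested.

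Several of these genes are neighbours. RefSeq (GRCm38.p6) places 15 S100 genes on chromosome 3. There S100a4 (start 90603770, end 90606045) and S100a6 (start 90612894, end 90614414) lie 6.8 kb apart with S100a5 between them, and S100a13 (start 90514233, end 90524581) lies 79.2 kb before S100a4. S100a11 (start 93520496, end 93526288) and S100a10 (start 93555117, end 93564645) form a pair 2.91 Mb beyond S100a6, 28.8 kb from each other. Anxa5 is on chromosome 3 too, Anxa2 on 9, Anxa6 on 11, Lgals1 on 15 and Anxa1 on 19. The genes beside S100a4 gave small differences. S100a5 rose by 0.43 ± 0.13 in memory against naive (limma adjusted p = 0.0327), lost in 7 alternatives (up to 0.113, without memory replicate 2). S100a3 rose by 0.58 ± 0.18 in PD-1int against naive (adjusted p = 0.0239), lost in 4 (up to 0.0803, without PD-1int replicate 2). S100a2, whose annotated span lies within that of S100a3 and which was added after its values were seen, rose by 0.54 ± 0.16 in PD-1int, lost in 2 (up to 0.0762, without PD-1int replicate 4), and by 0.61 ± 0.16 in PD-1hi.

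RefSeq (GRCm38.p6) gives promoter windows, 250 bases before to 50 after the annotated start, for 7 of the 10 genes: S100a4, S100a6, S100a11, S100a13, Anxa1, Anxa2 and Anxa5. Printed are those of the neighbours S100a4 and S100a6 and of Anxa2, which all rose, and, for contrast, of S100a11, which did not pass. All lie on the plus strand, at chr3:90603520-90603819, chr3:90612644-90612943, chr9:69453433-69453732 and chr3:93520246-93520545. Capitals mark matches, on either strand, to the AP-1 letters TGANTCA, the RUNX letters TGTGGT, the T-box letters GGTGTGA and the TATA box TATAAA. The KLF/SP letters CCNCNCCC were searched as well and are left in lower case.
S100a4: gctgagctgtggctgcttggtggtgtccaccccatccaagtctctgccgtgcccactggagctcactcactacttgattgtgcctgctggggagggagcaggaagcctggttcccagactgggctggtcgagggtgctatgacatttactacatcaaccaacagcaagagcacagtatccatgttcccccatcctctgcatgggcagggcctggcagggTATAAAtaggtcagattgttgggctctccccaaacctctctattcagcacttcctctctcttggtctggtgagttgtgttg
S100a6: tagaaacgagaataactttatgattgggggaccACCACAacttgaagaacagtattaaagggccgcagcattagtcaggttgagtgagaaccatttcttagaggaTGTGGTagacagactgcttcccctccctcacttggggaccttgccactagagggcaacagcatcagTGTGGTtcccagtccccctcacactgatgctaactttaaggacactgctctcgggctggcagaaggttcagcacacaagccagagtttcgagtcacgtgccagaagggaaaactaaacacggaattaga
Anxa2: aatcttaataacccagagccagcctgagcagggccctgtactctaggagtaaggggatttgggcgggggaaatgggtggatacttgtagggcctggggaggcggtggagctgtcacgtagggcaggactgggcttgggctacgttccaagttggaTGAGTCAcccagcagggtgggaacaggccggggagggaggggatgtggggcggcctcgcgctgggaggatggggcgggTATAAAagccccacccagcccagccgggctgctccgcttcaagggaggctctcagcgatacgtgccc
S100a11: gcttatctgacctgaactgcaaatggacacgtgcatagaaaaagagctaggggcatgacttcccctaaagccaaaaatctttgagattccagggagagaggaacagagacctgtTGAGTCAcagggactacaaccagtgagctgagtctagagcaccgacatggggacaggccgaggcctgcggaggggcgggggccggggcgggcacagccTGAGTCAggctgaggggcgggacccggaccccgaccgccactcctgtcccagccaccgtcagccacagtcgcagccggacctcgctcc

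S100a4 held the TATA box letters at -31 from the start and none of the other motifs, and Anxa2 held them at -17 with an AP-1 match at -95. S100a6 held 3 RUNX matches, at -217, -145 and -79. S100a11 held 2 AP-1 matches, at -136 and -38. Of the windows not printed, that of Anxa1, which did not pass, held the TATA box letters at -32. That of S100a13, which rose, held the T-box letters at -164. Of all 32851 windows of 300 bases, 7.8% held the AP-1 letters, 16.8% the RUNX letters, 4.0% the T-box letters, 13.6% the TATA box letters and 49.5% the KLF/SP letters. These matches describe the sequence only.

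Among the annexins Anxa2 changed most. Annexin A2 organises membrane domains and, with S100a10, serves as a surface platform for plasminogen activation. Anxa2 read 6.62, 6.93, 6.84 and 6.62 in the naive arrays, 9.41, 9.18, 9.0 and 9.42 in the memory arrays, 10.57, 10.53, 10.58 and 10.37 in the PD-1int arrays, and 10.73, 10.49, 10.49 and 10.63 in the PD-1hi arrays. The naive arrays lay lowest and the memory arrays next, each apart from the rest, and the effector subsets overlapped. The naive arrays of Anxa2 lay just above the array medians and were not told from background, which limits its folds against naive. Anxa2 rose by 2.50 ± 0.10 in memory against naive (5.66-fold, limma adjusted p = 9.21e-12) and by 1.26 ± 0.10 in PD-1int against memory (2.39-fold, adjusted p = 1.11e-07). PD-1hi and PD-1int differed by 0.07 ± 0.10 (95% interval -0.15 to 0.29, adjusted p = 0.843).

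Anxa6, which encodes an annexin of the membrane and actin cortex, was highest in PD-1int. It ranged from 10.73 to 10.88 in the naive arrays, 11.30 to 11.49 in the memory arrays, 11.69 to 11.90 in the PD-1int arrays and 11.52 to 11.65 in the PD-1hi arrays, with no overlap between subsets. Anxa6 rose against naive by 0.62 ± 0.07 in memory (limma adjusted p = 8.18e-06), 0.96 ± 0.07 in PD-1int (adjusted p = 1.11e-08) and 0.78 ± 0.07 in PD-1hi (adjusted p = 1.17e-07). PD-1hi lay between memory and PD-1int, differing by 0.15 ± 0.07 from memory (adjusted p = 0.16) and by -0.19 ± 0.07 from PD-1int (adjusted p = 0.217).

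Anxa5 encodes the phosphatidylserine-binding annexin used to stain dying cells. It ranged from 8.80 to 8.90 in the naive arrays, 8.73 to 9.03 in the memory arrays, 8.78 to 9.36 in the PD-1int arrays and 9.01 to 9.41 in the PD-1hi arrays. Every PD-1hi array lay above every naive array, yet the difference of 0.32 ± 0.12 did not pass (limma adjusted p = 0.0516); over 16 alternatives the adjusted p ran from 0.0341 to 0.178, and 5 passed, among them the fit with a replicate block (0.0347). PD-1hi against memory, with overlapping arrays, was close (0.32 ± 0.12, adjusted p = 0.0577, 0.0359 to 0.192 over the alternatives, 0.039 with the block). Anxa1, which encodes an annexin that dampens inflammation through formyl peptide receptors, was low on the scale: 21.7% of all values lay below its mean. It ranged from 5.06 to 5.21 in the naive arrays, 5.02 to 6.17 in the memory arrays, 4.95 to 6.12 in the PD-1int arrays and 4.90 to 5.52 in the PD-1hi arrays. All subsets of Anxa1 overlapped, and memory differed from naive by 0.39 ± 0.23 (adjusted p = 0.351).

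Lgals1, which encodes galectin-1, read 9.73, 8.87, 9.12 and 9.49 in the naive arrays, 12.44, 12.13, 12.12 and 12.38 in the memory arrays, 12.84, 12.93, 12.90 and 12.78 in the PD-1int arrays, and 13.13, 12.93, 12.96 and 13.17 in the PD-1hi arrays. No subset overlapped another, although the highest PD-1int and the lowest PD-1hi array both round to 12.93. Lgals1 rose against naive by 2.96 ± 0.14 in memory (7.80-fold, limma adjusted p = 6.33e-11), 3.56 ± 0.14 in PD-1int (11.8-fold, adjusted p = 2.16e-12) and 3.74 ± 0.14 in PD-1hi (13.4-fold, adjusted p = 8.10e-13). PD-1int exceeded memory by 0.60 ± 0.14 (adjusted p = 0.00599), and PD-1hi differed from PD-1int by 0.19 ± 0.14 (95% interval -0.11 to 0.48, adjusted p = 0.635). Ranked by difference from naive among 22180 genes, Lgals1 stood at place 30 in memory and 60 in PD-1hi, S100a4 at 40 and 22, and Anxa2 at 43 and 53.

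**Figure D2:**
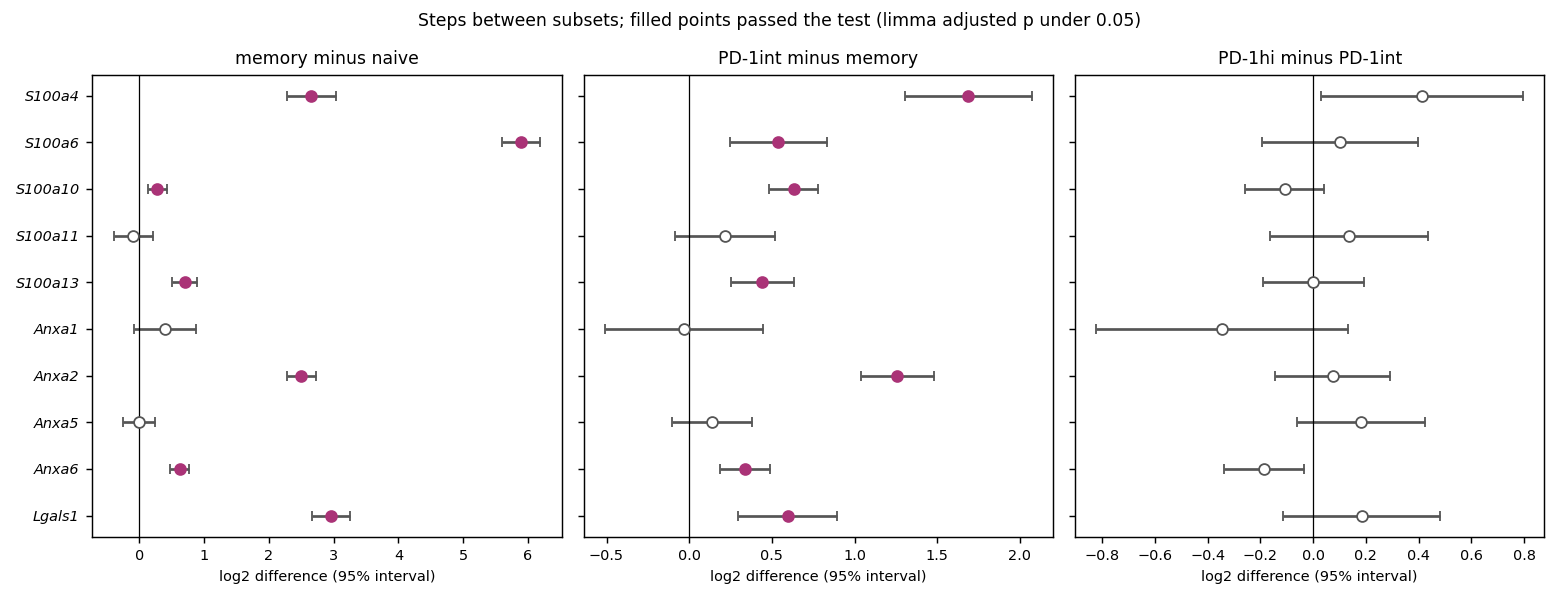
Log2 differences of the 10 genes for memory minus naive, PD-1int minus memory and PD-1hi minus PD-1int, from left to right, with 95% intervals of the limma fit; filled points passed the test, and each panel has its own horizontal scale. Filled points make up 7 of 10 in the left panel, 7 in the middle and 0 at right. Of all genes 11.7%, 16.2% and 3.31% changed in these comparisons.

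Genes that work together or lie side by side changed by different amounts. The pairs here were chosen after their values were seen, so no test is given, and the differences compare changes between subsets, not the levels of 2 genes. Within each array, S100a4 minus S100a6 was 1.15 ± 0.59 in naive cells, -2.09 ± 0.44 in memory cells, -0.94 ± 0.23 in PD-1int cells and -0.63 ± 0.18 in PD-1hi cells (mean ± SD, n = 4). S100a6, whose naive level was not told from background, thus gained on S100a4 up to memory, and S100a4 on S100a6 from memory to PD-1int. Anxa2 minus S100a10, the chains of the annexin A2 complex, was -5.33 ± 0.24 in naive cells, -3.11 ± 0.17 in memory cells, -2.48 ± 0.10 in PD-1int cells and -2.30 ± 0.07 in PD-1hi cells. Anxa2, whose naive level was not told from background either, gained 2.22 on S100a10 from naive to memory and 0.63 from memory to PD-1int. The mean of S100a10 lay above 99.7% of all values, and S100a6 and Lgals1 reached similar levels outside naive cells, up to 12.92 and 13.17. Whether the arrays respond evenly at such high levels was not tested, which limits the small steps of these genes between memory, PD-1int and PD-1hi.

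**Figure D3:**
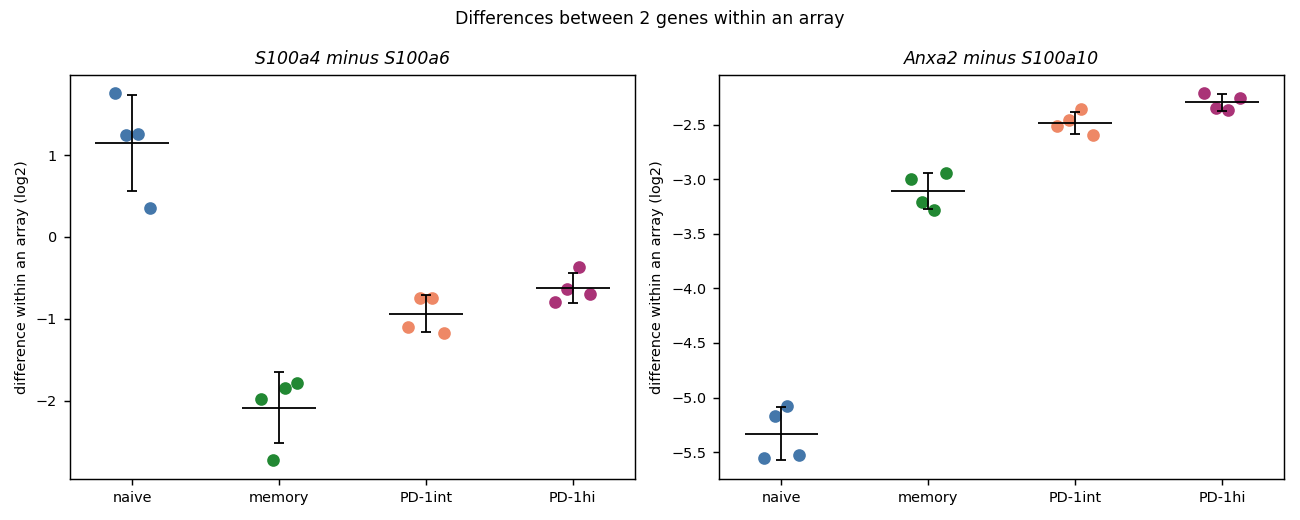
Difference between 2 genes within an array (log2), for S100a4 minus S100a6 at left and Anxa2 minus S100a10 at right, in the 4 subsets; points are arrays, and bars the mean ± SD. The left means are lowest in memory, at -2.09, and the right means climb from -5.33 in naive to -2.30 in PD-1hi cells.

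Other S100 genes and annexins were set beside all genes, of which 11.7%, 22.7% and 27.1% changed in memory, PD-1int and PD-1hi against naive. Of 11 other S100 genes 1 rose and 0 fell in memory, 1 rose and 0 fell in PD-1int, and 0 rose and 0 fell in PD-1hi against naive, with median differences of 0.00, 0.10 and 0.09, the first turning to -0.01 with median centring. These 11 do not include S100a2 and S100a7l2, which were measured as well. Against naive, S100a2 rose in PD-1int (0.54 ± 0.16, limma adjusted p = 0.0184, lost in 2 alternatives) and in PD-1hi (0.61 ± 0.16, adjusted p = 0.00691). S100a7l2 did not pass in any subset. S100a8 and S100a9, the calgranulins of neutrophils and monocytes, ranged from 3.58 to 4.50 and from 5.40 to 6.32. Of 7 other annexins 0 rose and 0 fell in memory, 1 rose and 0 fell in PD-1int, and 1 rose and 0 fell in PD-1hi against naive, with medians of -0.10, -0.03 and 0.14. With lists this short, nothing particular to these families is read from the counts. The one that rose was Anxa4, by 0.91 ± 0.13 in PD-1int (limma adjusted p = 3.69e-05) and by 0.85 ± 0.13 in PD-1hi (adjusted p = 5.67e-05). Against memory, PD-1hi was higher in Anxa4 (0.71 ± 0.13) and in Anxa10 (0.25 ± 0.07, adjusted p = 0.0167), the latter not without PD-1hi replicate 2 (adjusted p = 0.0635).

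Of 9 other galectins and galectin-related genes 1 rose and 0 fell in memory, 3 rose and 0 fell in PD-1int, and 2 rose and 1 fell in PD-1hi against naive, with medians of 0.09, 0.03 and 0.03; the last turned to -0.05 with quantile normalization. These shares lay near the 11.7%, 22.7% and 27.1% of all genes that changed, and nothing particular to the galectins is read from them. Lgals3, which encodes galectin-3, rose by 1.32 ± 0.14 in PD-1int (limma adjusted p = 1.19e-06) and by 1.66 ± 0.14 in PD-1hi (adjusted p = 4.45e-08), with a difference of 0.14 ± 0.14 in memory (adjusted p = 0.655). Lgalsl, a galectin-like gene, rose by 1.19 ± 0.13 and 1.70 ± 0.13 in the effector subsets. Lgals9, which encodes galectin-9, fell in PD-1hi by 0.47 ± 0.09 against naive (adjusted p = 6.58e-04) and by 0.59 ± 0.09 against memory (adjusted p = 8.33e-05). Lgals4 was higher in PD-1hi than in memory by 0.53 ± 0.12 (adjusted p = 0.00271).

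Galectin-1 acts through glycans. Of 12 genes for its T-cell counter-receptors and for enzymes that build or mask their glycans, 2 rose and 0 fell in memory, 8 rose and 1 fell in PD-1int, and 6 rose and 3 fell in PD-1hi against naive, with medians of 0.09, 0.36 and 0.32; 11.7%, 22.7% and 27.1% of all genes changed. St6gal1 encodes a sialyltransferase whose product masks galectin-1 binding sites. St6gal1 ranged from 9.65 to 10.07 in the naive arrays, 9.55 to 10.11 in the memory arrays, 5.72 to 6.44 in the PD-1int arrays and 6.06 to 6.65 in the PD-1hi arrays. The effector arrays all lay below the naive and memory arrays, around the array medians, and were not told from background. St6gal1 fell by 3.75 ± 0.16 in PD-1int and by 3.53 ± 0.16 in PD-1hi against naive (limma adjusted p = 4.98e-12 and 8.70e-12), and in memory differed by -0.04 ± 0.16 (adjusted p = 0.929). Cd7, a receptor of galectin-1, rose by 1.00 ± 0.12 in PD-1int and 1.39 ± 0.12 in PD-1hi, and Spn, the mucin CD43, by 0.68 ± 0.08 and 0.51 ± 0.08. Gcnt1, an enzyme that branches O-glycans, rose by 0.69 ± 0.14 and 1.30 ± 0.14. Mgat5 and B4galt1, enzymes of the same list, fell in PD-1hi as well. The call of Mgat5 held in all alternatives (limma adjusted p up to 0.0182), and that of B4galt1 was lost in 6 (up to 0.115). What these changes mean together for galectin-1 binding was not tested. With quantile normalization 7 rose and 2 fell in PD-1int, and Spn passed as lower in memory (-0.26, adjusted p = 0.0202).

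**Figure D4:**
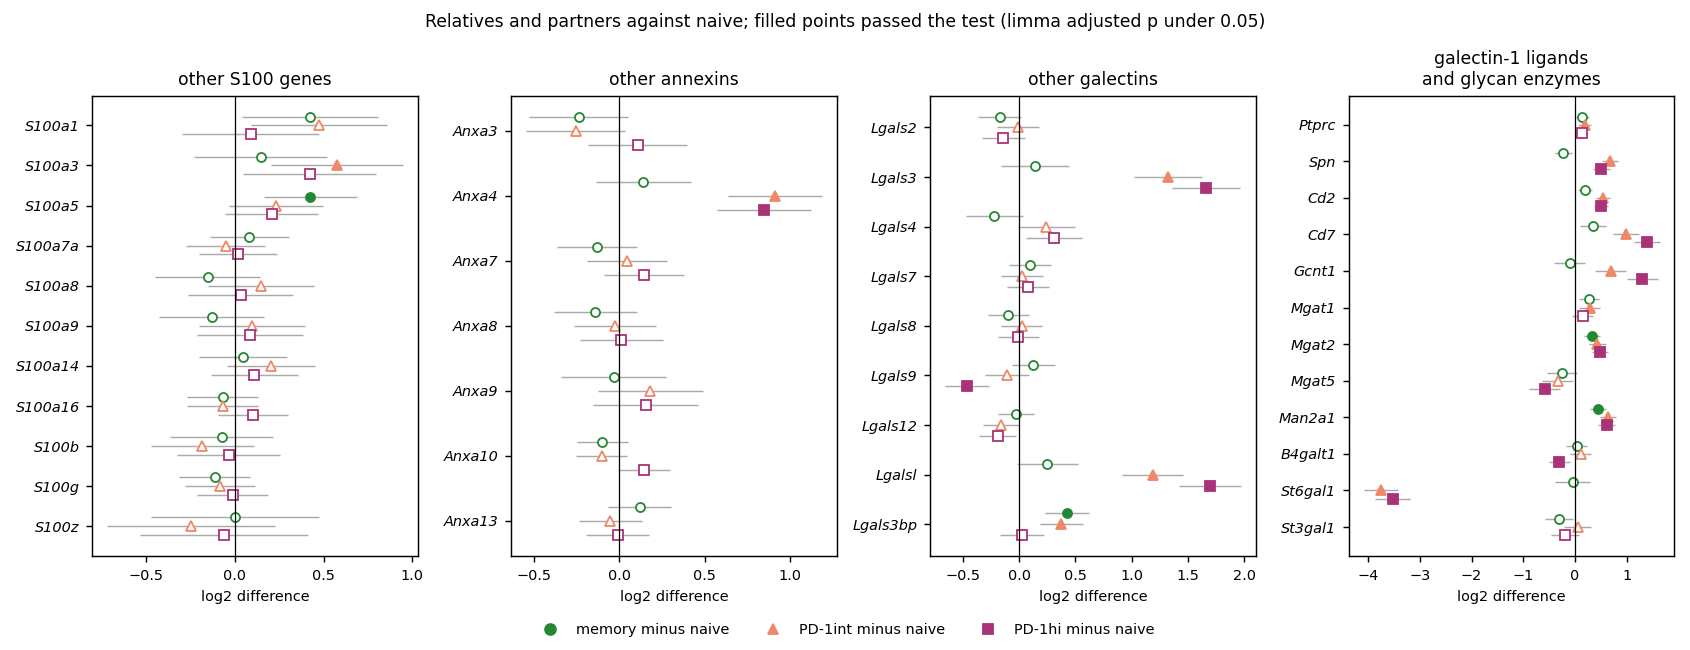
Log2 differences from naive cells, with 95% intervals, in memory, PD-1int and PD-1hi. Shown are other S100 genes (without S100a2 and S100a7l2), other annexins and galectins, and galectin-1 ligands and glycan enzymes. Horizontal axes are scaled per panel, and filled symbols passed the test. Few S100 genes and annexins have filled symbols, and St6gal1 lies lowest, at -3.75 in PD-1int.

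Of 14 partners of S100 proteins and annexins 4 rose and 0 fell in memory, 3 rose and 1 fell in PD-1int, and 3 rose and 1 fell in PD-1hi against naive, where 11.7%, 22.7% and 27.1% of all genes changed, with medians of 0.01, 0.02 and 0.06, the first turning to -0.00 with median centring. Ahnak, a giant scaffold protein that binds the complex of annexin A2 and S100a10, ranged from 7.08 to 7.61 in the naive arrays, 9.41 to 9.53 in the memory arrays, 9.62 to 9.85 in the PD-1int arrays and 9.16 to 9.34 in the PD-1hi arrays. Ahnak rose against naive by 2.20 ± 0.10, 2.44 ± 0.10 and 1.97 ± 0.10 in memory, PD-1int and PD-1hi (limma adjusted p = 4.26e-11, 4.30e-12 and 5.56e-11). It was lower in PD-1hi than in PD-1int (-0.47 ± 0.10, adjusted p = 0.0134), a call lost without PD-1int replicate 1 (adjusted p = 0.053). Capn2 and Capns1, chains of the calcium-activated protease calpain, rose by 1.71 ± 0.10 and 0.52 ± 0.07 in PD-1int. Ager, which encodes RAGE, a receptor for extracellular S100 proteins, fell by 0.52 ± 0.12 in PD-1hi (adjusted p = 0.00185). Its fall in PD-1int (-0.34 ± 0.12, adjusted p = 0.0411) was lost in 6 alternatives (up to 0.148, without naive replicate 1).

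Some S100 proteins and annexins bind actin and intermediate filaments. Of 18 genes listed for these filaments and their membrane links 9 rose and 0 fell in memory, 14 rose and 0 fell in PD-1int, and 13 rose and 1 fell in PD-1hi against naive, with medians of 0.23, 0.53 and 0.42. Of all genes 6.70%, 11.9% and 13.4% rose. The list was put together with earlier results of these arrays known, and its difference from other genes was not tested. With quantile normalization 7, 13 and 11 rose and 0, 1 and 2 fell. Actg1, gamma-actin, rose by 0.98 ± 0.11, 1.40 ± 0.11 and 1.66 ± 0.11 in memory, PD-1int and PD-1hi. Crip1, a LIM-domain protein, rose by 0.77 ± 0.08, 1.19 ± 0.08 and 1.00 ± 0.08, and Flna, filamin A, by 0.53 ± 0.07, 0.97 ± 0.07 and 0.86 ± 0.07. Itgb1, the integrin beta-1 chain, rose by 2.20 ± 0.17 in memory and 1.61 ± 0.17 in PD-1int and was lower in PD-1hi than in PD-1int (-1.23 ± 0.17, limma adjusted p = 2.41e-04).

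Likeness to other genes was measured as the root mean square log2 difference over the 16 arrays after each gene was centred on its own mean. A value means a like course only where it is small beside the SD of the gene, since 2 nearly flat genes also give a small value. Nearest to S100a4, whose SD over the arrays was 1.95, were Mki67 (0.33), Osbpl3 (0.34) and Ccna2 (0.40), of which Mki67 and Ccna2 are proliferation genes. Nearest to S100a6 (SD 2.83) were Klre1 (0.61), Slamf7 (0.74) and Fasl (0.76). Nearest to Anxa2 (SD 1.61) were Naip2 (0.24), Chst11 (0.26) and Atp2b4 (0.28), and to Lgals1 (SD 1.57) Chst11 (0.25), Lrrk1 (0.30) and Naip2 (0.30). S100a10 (SD 0.39) lay nearest to Cyba (0.089), Myo1g (0.098) and Agpat3 (0.104), S100a13 (SD 0.50) to Reep5 (0.066), Sipa1 (0.094) and Itgal (0.10), and Anxa6 (SD 0.38) to Flna (0.096), Sorl1 (0.108) and Inpp5d (0.110). Of the genes that did not pass, S100a11 (SD 0.24) lay nearest to Atp8b5 (0.112), 4930412C18Rik (0.131) and Gm609 (0.131). Anxa1 (SD 0.38) lay nearest to Scgb2b20 (0.241), Dkkl1 (0.256) and Yod1 (0.264), and Anxa5 (SD 0.20) to Pnrc2 (0.110), Dctn6 (0.113) and Cyth2 (0.118). These distances are large beside the SDs, so no shared course is read from them.

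Mitosis genes and markers of other cells were set beside all genes. Of all genes 11.7%, 22.7% and 27.1% changed in memory, PD-1int and PD-1hi against naive. With marker lists this short, nothing about other cells is read from their counts. Of 19 mitosis genes 18, 19 and 19 rose in memory, PD-1int and PD-1hi against naive, and their summed linear level was 1680 to 2019 (naive), 3975 to 9381 (memory), 11414 to 16396 (PD-1int) and 20801 to 27081 (PD-1hi). Mki67 read 10.67, 9.25, 9.52 and 10.42 in the memory arrays, where S100a4 read 10.33, 9.43, 10.36 and 10.44. Of 19 myeloid and dendritic-cell markers 5 rose and 0 fell in memory, 6 rose and 0 fell in PD-1int, and 5 rose and 1 fell in PD-1hi against naive, with summed levels of 6747 to 8052 (naive), 13554 to 15287 (memory), 8726 to 12868 (PD-1int) and 5380 to 8050 (PD-1hi). Among them Cd68, Itgax and Itgam rose in PD-1int by 2.86 ± 0.17, 4.02 ± 0.25 and 1.56 ± 0.20, and Ly6c2 fell in PD-1hi by 2.48 ± 0.32. Ly6c2 also rose in memory (limma adjusted p = 0.0247), a call lost in 6 alternatives (up to 0.0671). Its means were 12.21 (naive), 13.35 (memory), 12.06 (PD-1int) and 9.73 (PD-1hi), so it made up most of the summed level in naive and memory arrays. Lyz2, the lysozyme of macrophages and granulocytes, had means of 5.93 (naive), 5.90 (memory), 6.20 (PD-1int) and 6.43 (PD-1hi). Lyz2 was higher in PD-1hi than in memory by 0.53 ± 0.19 (limma adjusted p = 0.0492), a call lost in 6 alternatives (up to 0.159, without PD-1hi replicate 2). Against naive it differed by 0.50 ± 0.19 in PD-1hi (adjusted p = 0.0574), and passed in 6 alternatives, quantile normalization (0.0409) and median centring (0.0496) among them. Csf1r, Adgre1 and Mpo ranged from 5.97 to 7.03, 5.65 to 6.27 and 6.19 to 6.97, with means above 45.9%, 35.3% and 49.5% of all values.

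The marker lists that follow stand beside the same 11.7%, 22.7% and 27.1% of all genes that changed. Of 6 natural killer markers 4 rose and 0 fell in memory, 2 rose and 1 fell in PD-1int, and 1 rose and 0 fell in PD-1hi against naive, with summed levels of 378 to 456 (naive), 613 to 779 (memory), 524 to 574 (PD-1int) and 487 to 703 (PD-1hi). Klrb1c, Klri2, Cd160 and Tyrobp rose in memory by 1.33 ± 0.19, 0.81 ± 0.09, 1.12 ± 0.16 and 0.91 ± 0.15. Cd160 stayed higher in PD-1int (0.70 ± 0.16) and PD-1hi (1.22 ± 0.16) than in naive, whereas Klri2 was lower in PD-1int (-0.36 ± 0.09). Tyrobp was higher in PD-1int by 0.52 ± 0.15, a call lost in 4 alternatives (up to 0.0645, without PD-1int replicate 1). Ncr1 ranged from 5.61 to 6.01. Of 15 B-cell and CLL markers 1 rose and 0 fell in memory, 1 rose and 2 fell in PD-1int, and 1 rose and 2 fell in PD-1hi against naive, with summed levels of 1308 to 1755 (naive), 1826 to 2354 (memory), 1277 to 1653 (PD-1int) and 1175 to 1431 (PD-1hi). Cd22, an inhibitory receptor of B cells, rose by 3.22 ± 0.12 (memory), 1.75 ± 0.12 (PD-1int) and 0.85 ± 0.12 (PD-1hi) against naive (limma adjusted p = 2.46e-12, 4.16e-09 and 2.38e-05). Cd79b, a chain of the B-cell receptor, fell by 0.72 ± 0.13 in PD-1int and 0.97 ± 0.13 in PD-1hi, and Bank1, a B-cell adaptor, by 0.83 ± 0.19 and 0.91 ± 0.19. Ms4a1, Cd79a and Pax5 ranged from 5.18 to 6.17, 5.75 to 6.67 and 5.62 to 6.21, with means above 23.2%, 41.4% and 32.1% of all values. Of 6 erythroid and platelet markers 0 rose and 0 fell in memory, 0 rose and 0 fell in PD-1int, and 1 rose and 0 fell in PD-1hi against naive, with summed levels of 679 to 906 (naive), 727 to 786 (memory), 686 to 887 (PD-1int) and 833 to 972 (PD-1hi); the one that rose was Ppbp (1.06 ± 0.26). The part of proliferation or of other cells in the rises of S100a4, S100a6, Anxa2 and Lgals1 was not tested.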

How the data were processed

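Total RNA of the sorted cells was isolated with a column kit, labelled with a whole-transcript Pico kit and hybridised to Mouse Gene 2.0 ST arrays, per the labels. The authors deposited log2 values per probe set, made with Affymetrix Power Tools per the submitters' processing notes; its version and the way values were summarised and normalized are, for these files, not given in the sources used here. From the range, 2.35 to 14.13, came the log base.

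Of 41345 probe sets 23521 carry 1 gene symbol, 1814 several and 16010 none. Entrez identifiers matched RefSeq for 23328 and changed 0 symbols. The brightest probe set stood for each of the 1082 genes with more than 1. limma 3.58.1 (R 4.3.3) fitted a mean per subset over all 16 arrays, with no block, followed by eBayes and Benjamini-Hochberg adjustment over 22180 genes in each of 6 comparisons; the number of arrays limits the precision, and the median standard error was 0.10. The fit was tested on simulated data.

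Members and gene lists were chosen with earlier results of these data known. Named were all members, up to 4 genes per list with the smallest adjusted p, and the 3 genes most like each member. S100a2, S100a7l2, S100a9, S100a11-ps and defining markers were added after their values were seen. Alternatives were a replicate block, only the arrays compared, no dim genes (the lowest 40%), averaged probe sets, median centring, quantile normalization, array weights, robust eBayes with a trend, and leaving out each array. Sample titles tag the arrays of each subset AT1 to AT4, in step with the replicate numbers, and what the tag stands for is not stated. The numbers were not treated as pairs, since the labels do not say what they mark. Deviations from the subset means of same-numbered arrays correlated across genes by -0.05 to 0.15 (mean 0.03), above 0.1 in 2 of 24 pairs. Those of differently numbered arrays correlated by -0.17 to 0.20 (mean -0.01). These values do not settle the pairing, and 27 of 48 best matches fell on the array's own number, where unrelated numbers would give 12.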

Additional observations from a re-analysis of the deposited data

Results flagged for a closer look

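Of 40 sets of 4 arrays (10 genes in 4 subsets), 4 held an array far from the others by Dixon's gap ratio at the 95% level, which chance gives in about 1 of 20 sets. S100a4 in memory replicate 2 was 9.43, below the other memory arrays; without it S100a4 rose by 2.89 ± 0.13 in memory against naive. S100a6 in naive replicate 4 was 6.96, above the other naive arrays; without it S100a6 rose by 6.11 ± 0.07 in memory against naive. S100a6 in PD-1hi replicate 4 was 12.92, above PD-1hi arrays that were nearly equal; without it S100a6 rose by 6.52 ± 0.16 in PD-1hi against naive. Anxa6 in memory replicate 3 was 11.30, below the other memory arrays; without it Anxa6 rose by 0.67 ± 0.07 in memory against naive.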

How the results depend on the processing

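Over 954 recomputed differences of the 10 genes, 939 kept their call or lack of one, 3 lost a call, 12 gained one and 0 called differences changed sign. The losses were those of S100a10 in memory against naive. The gains were 5 for Anxa5 in PD-1hi against naive, 5 for Anxa5 in PD-1hi against memory and 2 for S100a11 in PD-1hi against memory; the cause was not tested. Leaving out the dimmest 40% of genes removed Anxa1 and left 13308 genes. With the replicate block, 7, 7 and 8 genes passed in memory, PD-1int and PD-1hi against naive, 7 and 8 in the effector subsets against memory, and 0 between the effector subsets, beside 7, 7, 7, 7, 6 and 0 without it. The shares of all genes that passed with the block are not given here, so no gain particular to these genes is read from the counts. S100a11 in PD-1hi against memory had a limma adjusted p of 0.0327 with the block. As a hint from the data and not the design, 27 of 48 comparisons of an array with another subset matched best at its own number, where unrelated numbers would give 12; whether the numbers pair the arrays is not settled. Over all genes 734 changed in PD-1hi against PD-1int, 470 without PD-1int replicate 1 and 474 without PD-1hi replicate 4.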
